A study of Mus musculus with 22 samples.

Results

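The transcripts described here are those of 10 inflammatory cytokine genes, Il1a, Il1b, Il1rn, Il18, Il33, Tnf, Il6, Osm, Il10 and Tgfb1, taken from the deposited count table by their gene symbols. They are 10 of the 23420 symbols in that table. EdgeR's default filter on low counts kept 14458 genes, among them 8 of the 10; Il1a and Il6 fell below it, and their fitted values come from a fit without a filter.

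The 10 genes were measured in inguinal white adipose tissue (IWAT) of 11 wildtype female C57Bl/6 mice. Mice received chow (lean, n = 5) or high fat diet (HFD; obese, n = 6) for 16 weeks and, at about 20 weeks of age, E0771 cells in PBS and Matrigel in the left inguinal pad (tumor-associated IWAT) and PBS and Matrigel without cells in the right pad (control IWAT). E0771 is a breast cancer line from the same mouse strain, and both pads of a mouse were collected 2 to 3 weeks after the injection. The 4 groups therefore were lean control, lean tumor-associated, obese control and obese tumor-associated IWAT, with 22 libraries of ribosome-depleted RNA in all, and every control pad came from an animal injected with tumor cells on the other side. Each library had 5759775 to 8598108 counts on genes.

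Interleukin-1 alpha and beta bind the same receptor, which signals through MyD88 and NF-kappaB, and Il1rn encodes the secreted antagonist that occupies this receptor without activating it. IL-18 and IL-33 belong to the same family but have receptors of their own, TNF acts through its own receptors, and IL-6 and oncostatin M share the signal chain gp130. IL-10 and TGF-beta 1 are known mostly for restraining macrophages and T cells, and in adipose tissue most of these cytokines come from macrophages and other stromal cells rather than from adipocytes.

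Upstream sequences of the RefSeq transcript starts (GRCm38.p6) were at hand for 8 of the 10 genes, with no entry for Il10 and Osm. The 4 windows of 250 bases below are those of Il1b, Il6, Tgfb1 and Tnf. Il1b, Il6 and Tgfb1 were higher in obese tumor-associated than in obese control IWAT without overlap, whereas Tnf was not called there. Il1rn, the windows of which are not shown, and Il10 did not overlap either. Of all genes tested, 9.95% lay higher without overlap in this comparison. Capitals mark the matches to 3 motifs searched on both strands: TATAAA (the TATA box, in 12.4% of the 32851 windows of this length), the kB motif that NF-kappaB factors bind (4.11%) and TGANTCA (an AP-1 motif, 6.75%). No match overlapped another.
Il1b, chr2:129371140-129371389, minus strand: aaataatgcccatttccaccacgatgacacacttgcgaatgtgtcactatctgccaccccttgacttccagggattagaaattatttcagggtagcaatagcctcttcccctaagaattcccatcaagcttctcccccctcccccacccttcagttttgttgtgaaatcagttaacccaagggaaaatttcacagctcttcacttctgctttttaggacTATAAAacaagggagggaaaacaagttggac
Il6, chr5:30012864-30013113, plus strand: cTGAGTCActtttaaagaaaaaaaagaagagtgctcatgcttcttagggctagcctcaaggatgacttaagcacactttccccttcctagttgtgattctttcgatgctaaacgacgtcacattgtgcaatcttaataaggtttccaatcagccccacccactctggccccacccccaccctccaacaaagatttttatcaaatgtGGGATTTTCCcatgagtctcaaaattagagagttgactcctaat
Tgfb1, chr7:25686752-25687001, plus strand: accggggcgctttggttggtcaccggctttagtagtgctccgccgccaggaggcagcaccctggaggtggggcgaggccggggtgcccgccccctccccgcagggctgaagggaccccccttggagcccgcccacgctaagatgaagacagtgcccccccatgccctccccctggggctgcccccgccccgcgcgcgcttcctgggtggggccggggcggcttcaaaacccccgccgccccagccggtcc
Tnf, chr17:35202008-35202257, minus strand: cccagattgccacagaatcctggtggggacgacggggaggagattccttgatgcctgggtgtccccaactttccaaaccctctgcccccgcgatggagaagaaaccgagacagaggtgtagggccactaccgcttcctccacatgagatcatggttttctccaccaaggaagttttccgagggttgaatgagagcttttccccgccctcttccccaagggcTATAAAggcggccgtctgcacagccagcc
The Il1b and Tnf windows both held a TATA box close to the start, 31 to 26 and 29 to 24 bases before it. Il6 held a kB match, GGGATTTTCC, 44 to 35 bases before the start and an AP-1 match at the far end of the window. Tgfb1 held none of these letters and had a GC content of 75.2%, against 44.4% for Il1b, 42.8% for Il6, 57.6% for Tnf and a median of 52.4% over all windows. Among the Il1rn windows there was an AP-1 match 141 to 135 bases before the start and, in another window, a kB match 51 to 42 bases before it. A match is a description of letters and does not show that a factor binds there.

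The 8 genes that passed the filter were compared between the groups with edgeR's quasi-likelihood test over all genes, at a Benjamini-Hochberg adjusted p under 0.05. In obese mice, 6 of the 8 were called higher in the tumor-associated pad (Il1b, Il1rn, Il18, Osm, Il10 and Tgfb1), where 54.5% of all genes tested were called and 26.8% were called higher. In lean mice, edgeR called 1 of the 8, Il10, where 4.18% of all genes were called and 3.27% called higher. Between diets, 2 of the 8 (Il1rn and Tgfb1) were called in control IWAT, both higher in obese mice, where 17.1% of all genes were called, 9.54% higher and 7.53% lower. In tumor-associated IWAT 3 of the 8 (Il1b, Il1rn and Tgfb1) were called higher in obese mice, where 47.0% of all genes were called and 24.7% called higher.

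Il1b, Osm and Il10 passed the filter through tumor-associated IWAT, where they are high: they had at least 10 reads in 4, 2 and 0 of the 11 control and in 11, 8 and 8 of the 11 tumor-associated libraries, and none of the 3 would have passed in the control libraries alone. The counts of members called are therefore a description and no support for a change of the group. In the fit without a filter, which holds all 10 genes, 7 were called in obese mice and 1 in lean mice with the tumor, where 3874 of 19839 genes were called higher and 4085 lower in obese mice, and 333 higher and 88 lower in lean mice. The pad comparisons share the obese or the lean mice with the diet comparisons, so that the 4 sets of values are not independent of each other.

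**Figure D1:**
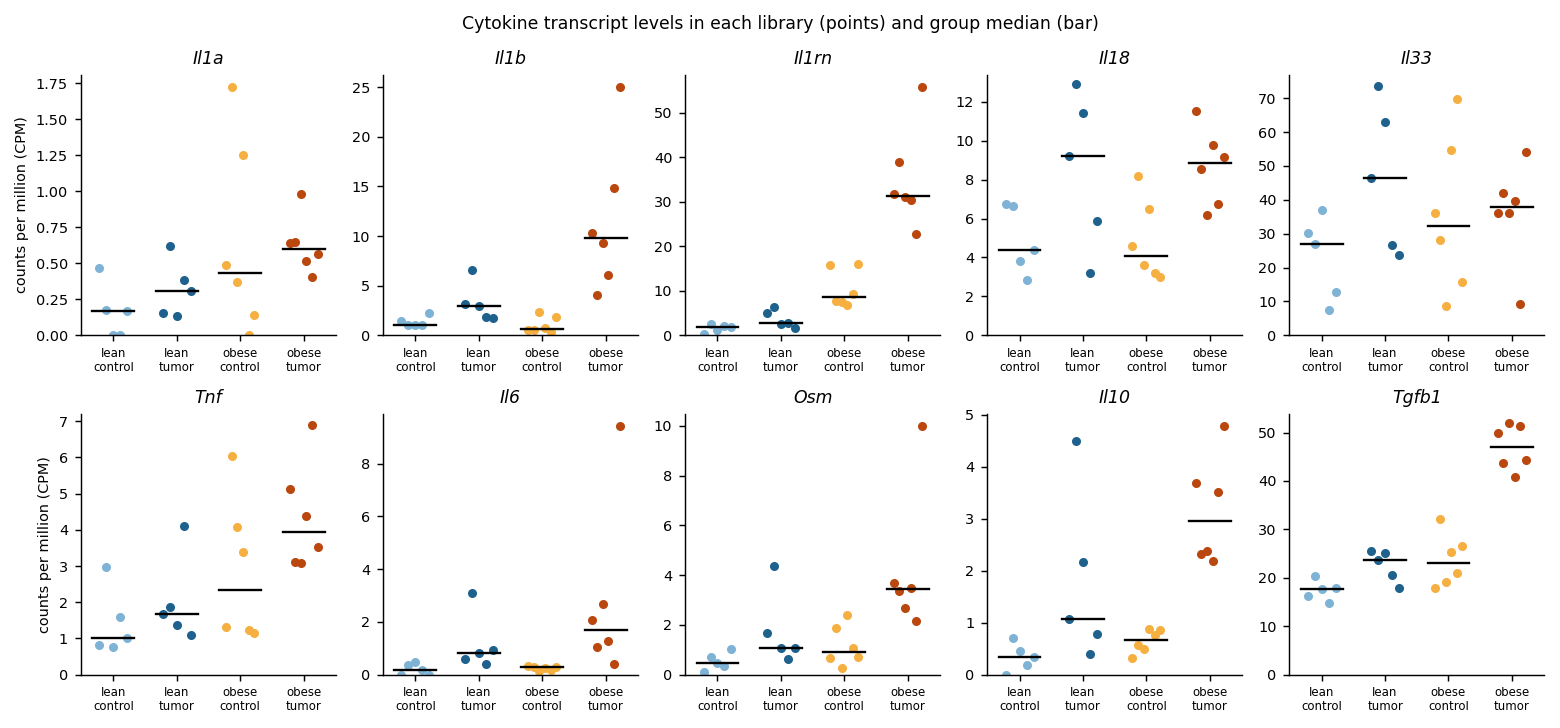
CPM (counts scaled to library size) of each cytokine gene in each of the 22 libraries (points) by group, with the group median as a bar and an axis from 0 in each panel. Il1rn lies higher in obese than in lean IWAT of both kinds, and Il1b and Tgfb1 lie highest in obese tumor-associated IWAT.

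Il1b (chr2:129364570-129371139 on GRCm38) changed with the tumor in obese mice more than any other member that passed the filter. In lean control IWAT it stood at 1.39, 1.05, 1.07, 1.06 and 2.20 CPM in mice 0, 2, 3, 6 and 9, and in lean tumor-associated IWAT at 3.18, 6.53, 2.99, 1.80 and 1.70 CPM in the same mice. In obese control IWAT the lowest, median and highest values were 0.307, 0.662 and 2.36 CPM, and in obese tumor-associated IWAT 4.01, 9.76 and 25.0 CPM. All 6 obese tumor-associated libraries lay above all 6 obese control libraries, a separation upwards that 9.95% of all genes tested showed, whereas the lean groups overlapped, as they did for all 10 members (5.33% of all genes tested lay higher without overlap in lean mice). Il1b rose 10.6-fold in obese mice (log2 fold change 3.41, SE 0.50, edgeR adjusted p = 3.41e-05), and its call was kept in all alternatives and left-out libraries tried (highest adjusted p 0.000956). In lean mice the log2 fold change was 1.24 (SE 0.54, edgeR adjusted p = 0.25), higher in 4 of 5 mice.

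Between diets, Il1b differed in tumor-associated but was not called in control IWAT. Tumor-associated IWAT of obese mice held 3.57 times the Il1b of that of lean mice (log2 fold change 1.84, SE 0.49, edgeR adjusted p = 0.00433), with 4 of 6 obese libraries above every lean one. For control IWAT the log2 fold change came to -0.33 (edgeR adjusted p = 0.734). Counts were low in control IWAT, between 2 and 19 reads per obese control library, and 2 SE on either side of this value reached from -1.43 to 0.77. The Il1b exons share 25 bases with those of the antisense gene Il1bos, and as the strand setting of the counting is not given in the sources used here, reads of that stretch cannot be told apart.

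Il1rn (chr2:24336853-24351494), the antagonist, followed the diet as well as the tumor. In lean control IWAT it stood at 0.348, 2.45, 1.23, 2.11 and 1.86 CPM in mice 0, 2, 3, 6 and 9, and in lean tumor-associated IWAT at 5.0, 6.37, 2.45, 2.83 and 1.70 CPM. In obese control IWAT it ranged from 6.87 over a median of 8.56 to 16.0 CPM, and in obese tumor-associated IWAT from 22.7 over 31.4 to 55.8 CPM. Every obese control library lay above every lean control library (a pattern of 7.44% of all genes tested), every obese tumor-associated library above every lean tumor-associated one (11%), and every obese tumor-associated library above every obese control one (9.95%).

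The diet difference of Il1rn was 6.74-fold in control IWAT (log2 fold change 2.75, SE 0.42, edgeR adjusted p = 0.000162) and 9.57-fold in tumor-associated IWAT (log2 fold change 3.26, SE 0.39, edgeR adjusted p = 7.75e-06). The tumor difference was 3.34-fold in obese mice (log2 fold change 1.74, SE 0.33, edgeR adjusted p = 0.00032), higher in 6 of 6 mice. In lean mice its log2 fold change was 1.23 (SE 0.44, edgeR adjusted p = 0.134), higher in 4 of 5 mice. The 3 calls were kept with every library left out and in every alternative that tested Il1rn.

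The ratio of Il1rn to Il1b counts in each library describes the balance of antagonist and agonist transcripts. In lean IWAT the ratio ran from 0.25 to 2.33 in control pads and from 0.818 to 1.57 in tumor-associated pads, with medians of 1.14 and 1.00. In obese IWAT it ran from 3.16 to 32.3 in control pads, with a median of 11.3, and from 1.53 to 9.74 in tumor-associated pads, with a median of 3.22. All obese control libraries lay above all lean libraries. The obese tumor-associated ratios overlapped both with those of lean IWAT and with those of obese control IWAT, and all 6 lay below the obese control median. Il1rn has more exon sequence than Il1b (5.535 against 1.907 kb, the union of the exons of all annotated transcripts). Per length the medians came to 0.394 (control) and 0.345 (tumor-associated) in lean mice and to 3.90 (control) and 1.11 (tumor-associated) in obese mice. The highest ratios, those of obese control mice 0 and 4 (32.3 and 30.5), rest on 3 and 2 Il1b reads.

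**Figure D2:**
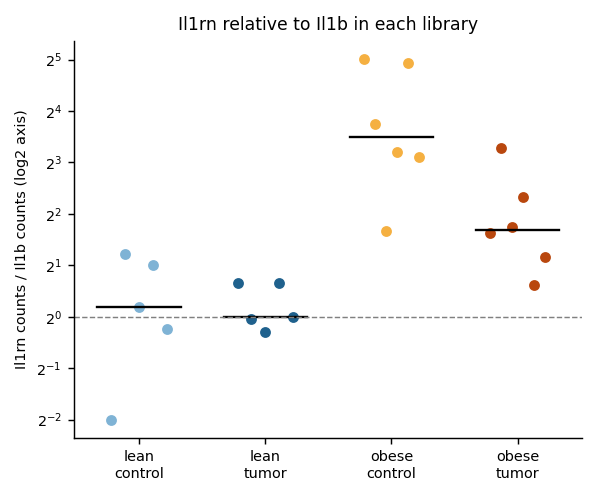
Ratio of Il1rn to Il1b counts in each library on a log2 axis, with the group median as a bar and a dashed line at equal counts. The lean libraries lie around 1, the obese control libraries between 3.16 and 32.3, and the obese tumor-associated libraries between 1.53 and 9.74.

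Il1a (chr2:129299610-129309972), the other agonist, was barely detected. It had at most 4 reads in any lean library and 12 in any obese one, and no read in lean control mice 3 and 6 and obese control mouse 4, where a count of 0 allows up to 0.459, 0.528 and 0.46 CPM. Its 2 highest values, 1.72 and 1.25 CPM, were those of obese control mice 1 and 3, which also held the most B cell marker RNA. Its tumor difference was 0.77 on the log2 scale in lean mice and -0.10 in obese mice (edgeR adjusted p = 0.821 and 0.95 without a filter). It shares 222 exon bases with Gm14023 on the other strand, the reads of which cannot be told apart from its own.

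Of the other IL-1 family cytokines, Il18 rose with the tumor in obese mice and Il33 was called in none of the comparisons. Il18 (chr9:50554827-50581840), which caspase-1 turns into its active form, stood in lean control IWAT at 6.74, 6.65, 3.83, 2.82 and 4.41 CPM in mice 0, 2, 3, 6 and 9, and in lean tumor-associated IWAT at 9.24, 12.9, 11.4, 3.22 and 5.87 CPM. Obese control IWAT ranged from 3.01 over 4.08 to 8.19 CPM, and in obese tumor-associated IWAT from 6.17 over 8.84 to 11.5 CPM. It was higher in the tumor-associated pad of 5 of 5 lean and 6 of 6 obese mice, though the groups overlapped in both diets.

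Il18 rose 1.78-fold in obese mice (log2 fold change 0.83, SE 0.32, edgeR adjusted p = 0.0309), and the lean value was nearly the same size but not called (0.79, SE 0.35, edgeR adjusted p = 0.251). The obese call is not firm: it was lost without obese control mouse 0, 2, 4 or 8, without obese tumor-associated mouse 0 or 3, and without both pads of obese mouse 0, 2, 4 or 8 (edgeR adjusted p between 0.0514 and 0.105). Between diets the log2 fold change was -0.02 in control and 0.02 in tumor-associated IWAT (edgeR adjusted p = 0.981 and 0.959).

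Il33 (chr19:29925114-29960718), an alarmin of stromal and barrier cells, varied widely within every group. In lean control IWAT it stood at 30.1, 26.9, 37.1, 7.39 and 12.7 CPM and in lean tumor-associated IWAT at 46.5, 73.7, 62.9, 26.6 and 23.8 CPM in mice 0, 2, 3, 6 and 9. Obese control IWAT ranged from 8.55 over 32.2 to 69.7 CPM and in obese tumor-associated IWAT from 9.20 over 37.9 to 54.2 CPM. It was higher in the tumor-associated pad of 5 of 5 lean mice but of only 3 of 6 obese mice, with changes within an obese mouse from -2.88 to 2.04 on the log2 scale. The log2 fold change was 1.03 in lean (SE 0.52, edgeR adjusted p = 0.343) and 0.03 in obese mice (SE 0.47, edgeR adjusted p = 0.961), and the difference between the diets was -1.0 (SE 0.70, edgeR adjusted p = 0.316).

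Tnf (chr17:35199381-35202007) was not called in any of the comparisons. It stood in lean control IWAT at 0.813, 2.97, 0.766, 1.58 and 1.02 CPM and in lean tumor-associated IWAT at 1.67, 1.87, 1.36, 4.12 and 1.08 CPM in mice 0, 2, 3, 6 and 9. Its range ran in obese control IWAT from 1.15 over 2.34 to 6.03 CPM, and in obese tumor-associated IWAT from 3.08 over 3.95 to 6.90 CPM. The groups overlapped in each comparison. The tumor-associated pad was higher in 4 of 5 lean and 4 of 6 obese mice, with log2 fold changes of 0.52 and 0.59 (edgeR adjusted p = 0.767 and 0.245).

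For obese against lean mice the log2 fold change of Tnf was 1.02 in control IWAT (SE 0.48, edgeR adjusted p = 0.151) and 1.09 in tumor-associated IWAT (SE 0.46, edgeR adjusted p = 0.0572). The latter came to 1.53 without lean tumor-associated mouse 6 (edgeR adjusted p = 0.0153) and passed the threshold also without lean control mouse 2, obese control mouse 1 or 8, or obese tumor-associated mouse 1 (0.0436 to 0.0495). The obese control libraries of mice 1, 2 and 3 held the highest control values, 6.03, 4.09 and 3.37 CPM. The libraries of mice 1 and 3 also held the most B cell marker RNA of the series (432 and 400.5 CPM over 4 markers), and without these 2 and the obese tumor-associated library of mouse 3 (101 CPM) the log2 fold change was 0.47 in control IWAT (edgeR adjusted p = 0.617) and 1.12 for the tumor in obese mice (edgeR adjusted p = 0.0608). The part of lymphocyte RNA in the Tnf values was not tested.

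Among the gp130 cytokines, Osm rose with the tumor in obese mice and Il6 lay at the edge of detection in control IWAT. Osm (chr11:4236420-4241026) stood at 0.116, 0.70, 0.459, 0.352 and 1.02 CPM in lean control and at 1.67, 4.35, 1.09, 0.644 and 1.08 CPM in lean tumor-associated IWAT of mice 0, 2, 3, 6 and 9. Osm ranged in obese control IWAT from 0.248 over 0.895 to 2.37 CPM and in obese tumor-associated IWAT from 2.16 over 3.42 to 9.99 CPM, where 5 of 6 libraries lay above every obese control library. It was higher in the tumor-associated pad of all 11 mice.

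The rise of Osm in obese mice was 3.6-fold (log2 fold change 1.85, SE 0.52, edgeR adjusted p = 0.00601). Its call was kept with every library left out and in every alternative that tested it (highest adjusted p 0.0484). Without the 3 libraries with most B cell RNA the log2 fold change was 2.68. As Osm passed the filter through tumor-associated IWAT, where it is high, the kept call is a description. In lean mice the log2 fold change was 1.74 (SE 0.66, edgeR adjusted p = 0.163). For obese against lean mice it came to 1.26 in tumor-associated IWAT (SE 0.54, edgeR adjusted p = 0.0598), and it passed the threshold without lean tumor-associated mouse 2 (1.90, edgeR adjusted p = 0.00909), obese control mouse 2 (0.0481) or obese tumor-associated mouse 4 (0.0439).

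Il6 (chr5:30013114-30019981) had 0 to 3 reads in every control library, lean or obese. It stood at 0, 0.35, 0.459, 0.176 and 0 CPM in lean control IWAT, where the 2 counts of 0 allow up to 0.348 and 0.509 CPM, and at 0.606, 3.11, 0.815, 0.386 and 0.927 CPM in lean tumor-associated IWAT. In obese control IWAT it ranged from 0.124 over 0.268 to 0.326 CPM and in obese tumor-associated IWAT from 0.406 over 1.69 to 9.42 CPM, without overlap. The lowest tumor-associated value, that of mouse 4, rests on 3 reads, against at most 2 in obese control libraries. This separation therefore lies within counting error, and 9.95% of all genes tested showed one upwards. Il6 was higher in the tumor-associated pad of all 11 mice, in some by few reads. In the fit without a filter its log2 fold change was 3.48 in obese mice (SE 0.74, edgeR adjusted p = 0.000877) and 2.48 in lean mice (SE 0.88, edgeR adjusted p = 0.178). The size of these folds rests on the few reads in control IWAT. DESeq2 gave an obese value of 3.58 (DESeq2 adjusted p = 5.69e-05), and without obese tumor-associated mouse 8 the edgeR value was 2.56 and still called. For obese against lean mice it came to 1.28 in tumor-associated IWAT (edgeR adjusted p = 0.138), and it ranged from 0.37 without obese tumor-associated mouse 8 to 2.02 without lean tumor-associated mouse 2 (edgeR adjusted p = 0.0309).

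The 2 cytokines known for restraining inflammation were both higher with the tumor in obese mice, and Il10 was the member called in lean mice. Il10 (chr1:131019845-131024974) stood at 0, 0.70, 0.459, 0.176 and 0.339 CPM in lean control and at 1.06, 4.51, 2.17, 0.386 and 0.772 CPM in lean tumor-associated IWAT of mice 0, 2, 3, 6 and 9. Il10 ranged in obese control IWAT from 0.326 over 0.671 to 0.875 CPM and in obese tumor-associated IWAT from 2.19 over 2.95 to 4.78 CPM. The obese groups did not overlap, a separation upwards that 9.95% of all genes tested showed. The lean groups did overlap, and the tumor-associated pad was the higher in all 11 mice.

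Il10 rose 5.31-fold in lean mice (log2 fold change 2.41, SE 0.63, edgeR adjusted p = 0.0334) and 4.71-fold in obese mice (log2 fold change 2.24, SE 0.50, edgeR adjusted p = 0.00113). The lean call rests on 0 to 4 reads per control library and was lost without lean control mouse 0, 3, 6 or 9, without lean tumor-associated mouse 0, 2 or 3, and without both pads of lean mouse 0, 2 or 3 or of obese mouse 2 (edgeR adjusted p between 0.0523 and 0.184, the last without lean tumor-associated mouse 2, with a log2 fold change of 1.71). The obese call was kept in every setting that tested Il10. As Il10 passed the filter through tumor-associated IWAT, where it is high, this is a description. Between diets the log2 fold change was 1.00 in control and 0.82 in tumor-associated IWAT (edgeR adjusted p = 0.317 and 0.17). The latter became 1.5 without lean tumor-associated mouse 2 (edgeR adjusted p = 0.0153).

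Tgfb1 (chr7:25687002-25705077) varied least within the groups, its highest value being 1.28 to 1.79 times its lowest, and it was called in the tumor comparison of obese mice and in both diet comparisons. It stood at 16.3, 20.3, 17.6, 14.8 and 18.0 CPM in lean control and at 25.6, 23.6, 25.1, 20.6 and 17.9 CPM in lean tumor-associated IWAT of mice 0, 2, 3, 6 and 9. In obese control IWAT it ranged from 18.0 over 23.1 to 32.2 CPM and in obese tumor-associated IWAT from 40.7 over 47.1 to 52.0 CPM. All obese tumor-associated libraries lay above all libraries of the other 3 groups.

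Tgfb1 rose 1.98-fold with the tumor in obese mice (log2 fold change 0.99, SE 0.13, edgeR adjusted p = 1.38e-05) and in tumor-associated IWAT was 2.08-fold higher in obese mice (log2 fold change 1.06, SE 0.14, edgeR adjusted p = 1.59e-05). Both calls were kept in every alternative. In control IWAT it was 1.36-fold higher in obese mice (log2 fold change 0.45, SE 0.14, edgeR adjusted p = 0.0325), a call that was lost without lean control mouse 0, 3 or 6 or obese control mouse 1, 3 or 8 (edgeR adjusted p between 0.0597 and 0.0916), with upper-quartile scaling (0.0545), in a fit of those 2 groups alone (0.0594) and, at a log2 fold change of 0.27, without the 3 libraries with the most B cell RNA (edgeR adjusted p = 0.195). In lean mice the tumor difference was 0.38 (SE 0.15, edgeR adjusted p = 0.175).

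**Figure D3:**
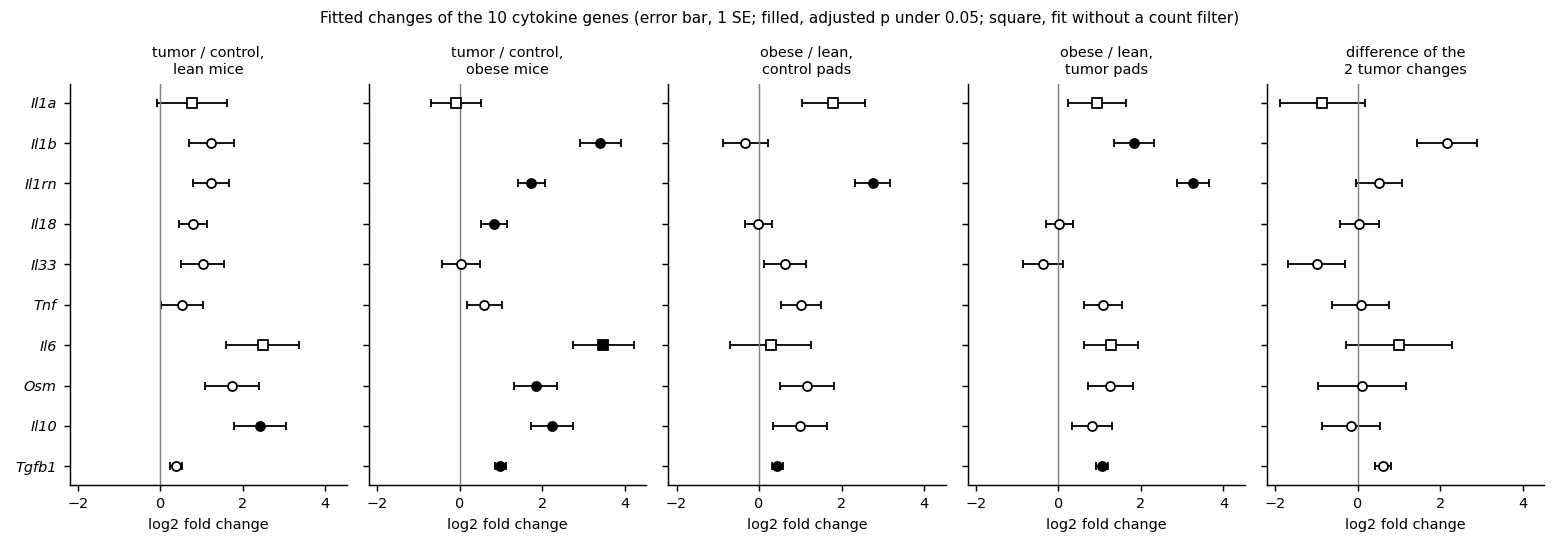
Fitted log2 fold changes of the 10 genes with 1 SE in the 5 comparisons, filled where the edgeR adjusted p was under 0.05, with squares for Il1a and Il6 from the fit without a count filter. The filled symbols of the obese tumor comparison are Il1b, Il1rn, Il18, Il6, Osm, Il10 and Tgfb1, and that of the lean comparison is Il10.

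Whether the tumor change differed between obese and lean mice was tested as a contrast of its own. EdgeR called 0 of the 8 genes at an adjusted p under 0.05, where 4.92% of all genes were called. Of the 8, 2 had an unadjusted edgeR p under 0.05, and DESeq2, which called 2368 of the 19839 genes it fitted, called these 2. They were Il1b, the tumor change of which was larger in obese mice by 2.17 on the log2 scale (SE 0.73, edgeR adjusted p = 0.0653, DESeq2 adjusted p = 0.0327), and Tgfb1, larger by 0.61 (SE 0.19, edgeR adjusted p = 0.0601, DESeq2 adjusted p = 0.0251). With edgeR, Il1b passed the threshold without obese control mouse 2, obese tumor-associated mouse 1 or both pads of obese mouse 1 (adjusted p between 0.0236 and 0.0485), and Tgfb1 without obese control mouse 1, obese tumor-associated mouse 1 or 3 or both pads of obese mouse 1 (0.0161 to 0.0499). For Il1rn, Il18, Osm and Il10 the differences were 0.51, 0.04, 0.10 and -0.17 (edgeR adjusted p from 0.539 to 0.962).

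Within single mice, Il1b changed by 1.85 to 4.67 on the log2 CPM scale from the control to the tumor-associated pad of the 6 obese mice and by -0.33 to 2.35 in the 5 lean mice. Il1rn changed by 0.99 to 2.29 in obese and by -0.12 to 3.06 in lean mice. Tgfb1 changed by 0.44 to 1.46 in obese mice and by at most 0.65 in lean mice, of which mouse 9 was level at 18.0 and 17.9 CPM. Lean mouse 9 was also the animal in which Il1b and Il1rn did not go up. In an exact two-sided sign-flip permutation test over the mice, Il1b, Il1rn, Il18, Il6, Osm, Il10 and Tgfb1 all reached p = 0.03125 in obese mice, the smallest that 6 mice allow. In lean mice Il18, Il33, Il6, Osm and Il10 reached p = 0.0625, the smallest that 5 mice allow in this exact test. The smallest p is reached whenever all mice change in the same direction. The share of all genes that reach it was not computed, so these lists of members are a description.

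**Figure D4:**
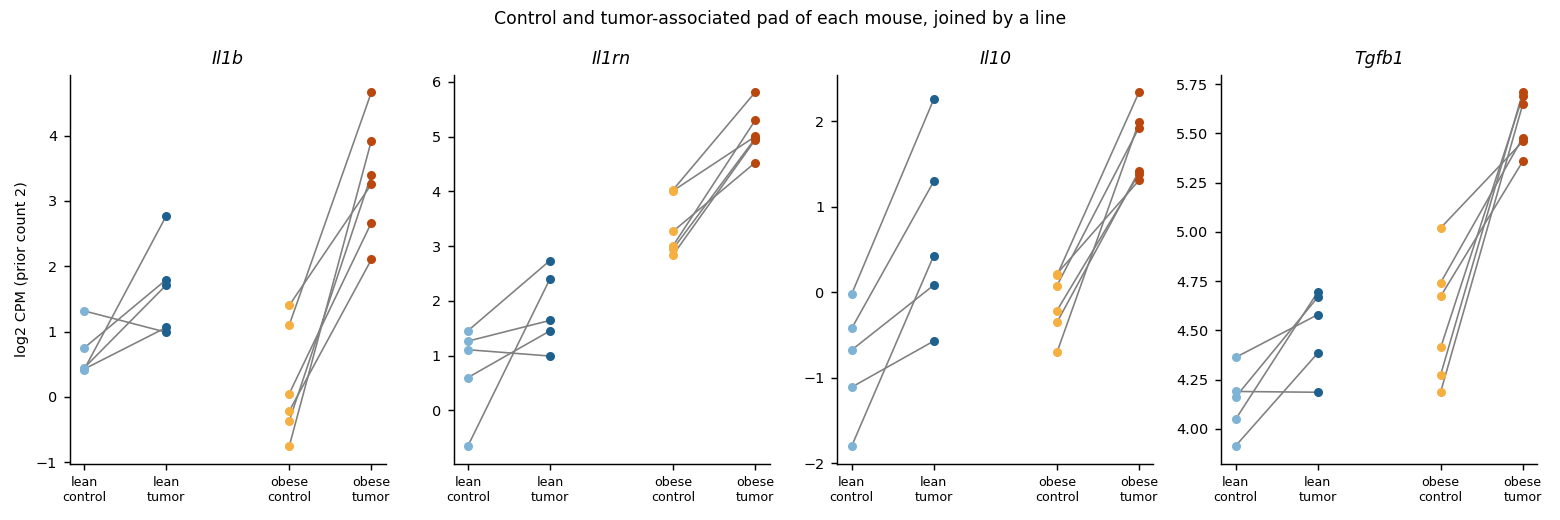
Log2 CPM (prior count 2) of Il1b, Il1rn, Il10 and Tgfb1 in the control and the tumor-associated pad of each mouse, joined by a line. All lines of obese mice go up for the 4 genes, and in lean mice the lines of mouse 9 are level or go down for Il1b, Il1rn and Tgfb1.

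Levels were compared between genes as CPM per kb of exon sequence, the union of the exons of all annotated transcripts of a gene. The annotation of the counting is not given, so that these lengths may differ from those counted. Il33 had the highest mean in every group, 7.91 ± 4.29 (SD, n = 5) in lean control, 16.2 ± 7.59 (SD, n = 5) in lean tumor-associated, 12.3 ± 8.06 (SD, n = 6) in obese control and 12.5 ± 5.13 (SD, n = 6) in obese tumor-associated IWAT. Il18 and Tgfb1 followed in every group, with ranges that overlapped, and in obese tumor-associated IWAT Tgfb1 (9.32 ± 0.926, SD, n = 6) came before Il18 (8.40 ± 1.92, SD, n = 6), higher in 3 of 6 libraries. In lean control, lean tumor-associated and obese control IWAT the range of Tgfb1, the lowest of these 3, did not overlap with that of the next gene. Il1rn was the sixth in lean control IWAT (0.289 ± 0.15, SD, n = 5) and the fourth in obese tumor-associated IWAT (6.35 ± 2.06, SD, n = 6), just ahead of Il1b (6.07 ± 3.97, SD, n = 6) in 4 of 6 libraries. Il1a and Il6 were the lowest pair in every group, Il6 being the lower in control and Il1a in tumor-associated IWAT, with ranges that overlapped.

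Transcripts of macrophages, a main source of Il1b and Tnf, were also higher in tumor-associated IWAT. The sum of 13 macrophage markers ran from 917 to 1873 CPM in lean control, 1988 to 4249 CPM in lean tumor-associated, 1428 to 1877 CPM in obese control and 1951 to 5577 CPM in obese tumor-associated IWAT, with medians of 1324, 3186, 1774 and 5271 CPM. Of the 13 markers, edgeR called 9 higher in lean and 10 higher in obese tumor-associated IWAT, beside 3.27% and 26.8% of all genes. More cells that make a transcript and more transcript per cell cannot be told apart in bulk tissue.

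Il1b per 1000 CPM of macrophage markers had medians of 0.966 (control) and 0.907 (tumor-associated) in lean mice and of 0.359 (control) and 2.58 (tumor-associated) in obese mice, the last ranging from 0.719 to 7.63. For Il1rn the medians were 0.996, 1.35, 5.74 and 8.86 in the same order, and the lowest obese value, 3.77, lay above the highest lean value, 2.30. For Tgfb1 they were 13.7, 6.89, 14.3 and 8.86, with a range from 7.64 to 26.3 in obese tumor-associated IWAT. The highest Il1b and Tgfb1 ratios, 7.63 and 26.3, were those of obese tumor-associated mouse 4, which had the lowest marker sum of its group. These ratios are descriptions, and the part of macrophage number in the differences was not tested.

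**Figure D5:**
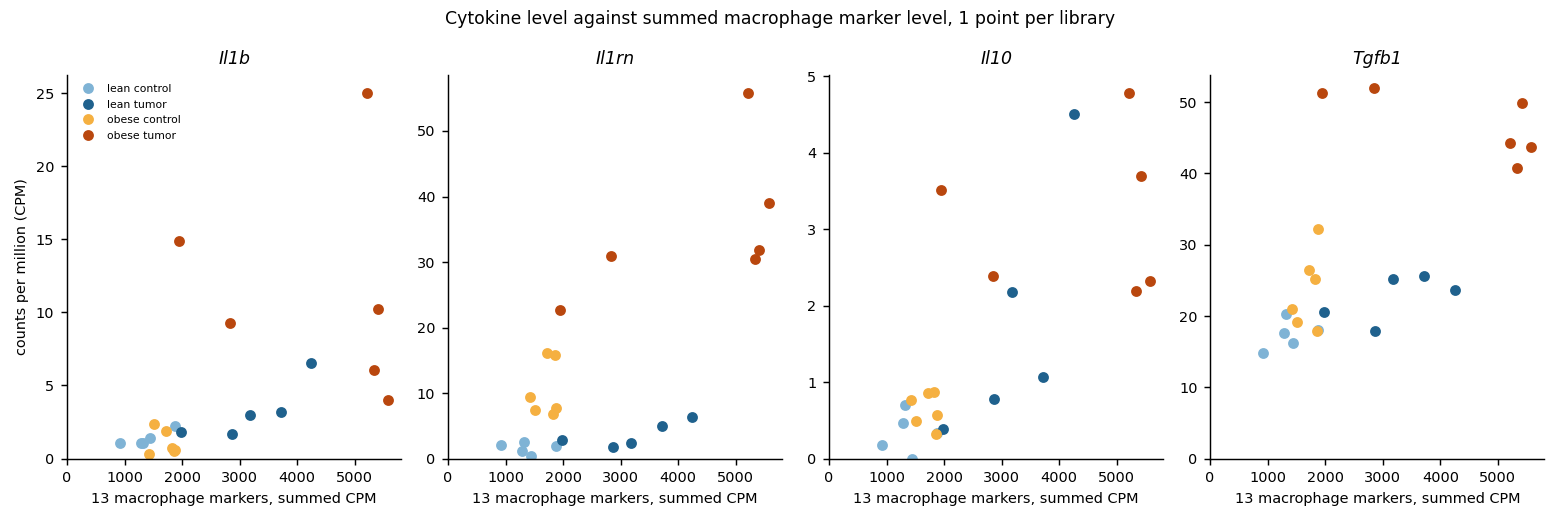
CPM of Il1b, Il1rn, Il10 and Tgfb1 against the summed CPM of 13 macrophage markers, 1 point per library, colored by group, with both axes from 0. The obese tumor-associated library of mouse 4, with a marker sum of 1951 CPM, lies above all control libraries for each of the 4 genes, and Il1rn is higher in obese than in lean libraries of like marker sums. That library of mouse 4 also had the lowest adipocyte (2181 CPM), fibroblast (1776 CPM) and endothelial (245 CPM) marker sums of the series. It held the most RNA of the germline and embryonic genes described below (999.7 CPM).

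The tissue carried the defining transcripts of fat: all 10 adipocyte markers were detected, with group medians of their sum between 9724 and 22419 CPM. With the tumor in obese mice, where the members above rose, edgeR called 9 of the 10 adipocyte markers lower (median log2 fold change -1.33), as well as 6 of 7 epithelial and 4 of 5 endothelial markers, beside 27.7% of all genes. In lean mice none of these 3 lists had a marker called lower, beside 0.913% of all genes. The part of these shifts in the members' values was not tested. Neutrophil markers were low throughout, from 12.4 to 40.1 CPM over the 8 markers in the table. Monocyte markers had medians of 113, 204, 53.3 and 308 CPM in lean control, lean tumor-associated, obese control and obese tumor-associated IWAT. A list of 10 germline and embryonic genes had been picked in earlier work on these data for being high in obese tumor-associated libraries. Their height there is therefore no result. They summed to 40.1 to 999.7 CPM in obese tumor-associated and to at most 85.7 CPM in the other libraries. Without the 3 obese tumor-associated libraries with most of that RNA (mice 0, 2 and 4), the tumor calls of Il1b, Il1rn, Osm, Il10 and Tgfb1 in obese mice were kept (log2 fold changes of 3.42, 1.98, 2.25, 2.21 and 0.85), and that of Il18 was lost (0.91, edgeR adjusted p = 0.0693).

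The receptors, processing enzymes, signal components and known targets of the 10 cytokines were followed as a list of 84 genes, 83 of which were in the table and passed the filter. In obese mice 37 were called higher and 9 lower in tumor-associated IWAT (median log2 fold change 0.28), and in lean mice 10 higher and 1 lower (median 0.31). Against lean mice, 17 were called higher and 2 lower in obese control IWAT, and 27 higher and 9 lower in obese tumor-associated IWAT, where over all genes 9.54% were called higher and 7.53% lower in control IWAT and 24.7% higher and 22.4% lower in tumor-associated IWAT. Over all genes, 54.5% were called with the tumor in obese mice (26.8% higher, 27.7% lower) and 4.18% in lean mice (3.27% higher, 0.913% lower).

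Among the 19 receptor genes, 7 were called higher and 3 lower with the tumor in obese mice, close to the shares of all genes (26.8% higher and 27.7% lower). Il1rap, the accessory chain that the IL-1 and IL-33 receptors need for signaling, rose from 20.8 ± 7.99 to 82.6 ± 54.7 CPM (SD, n = 6; log2 fold change 1.99, edgeR adjusted p = 8.08e-05), and Il18rap, the accessory chain of the IL-18 receptor, from 5.78 ± 2.65 to 31.3 ± 22.3 CPM (SD, n = 6; log2 fold change 2.43, edgeR adjusted p = 0.000343). Il6st, which encodes gp130, fell by 0.41 (edgeR adjusted p = 0.0446) in 6 of 6 mice, from 573 ± 37.6 to 431 ± 131 CPM (SD, n = 6), and Tgfbr3, a co-receptor of TGF-beta, fell by 0.51 (edgeR adjusted p = 0.00134). In lean mice 2 of the 19 receptor genes were called, both higher, where 3.27% of all genes were called higher. Il1r1, the signaling IL-1 receptor, rose by 0.78 and Tnfrsf1b by 0.67 (edgeR adjusted p = 0.022 and 0.045).

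Of the 18 processing and release genes, 13 were called higher and 2 lower in obese tumor-associated IWAT, beside 26.8% and 27.7% of all genes. Nlrp3, the sensor of the inflammasome that activates caspase-1, rose from 2.4 ± 0.894 to 11.3 ± 2.83 CPM (SD, n = 6; log2 fold change 2.23, edgeR adjusted p = 5.26e-05), higher in 6 of 6 mice, and Nlrp1b by 1.42 (edgeR adjusted p = 0.000208). Itgb8, an integrin chain that activates latent TGF-beta, fell by 1.39 (edgeR adjusted p = 0.00369), and Ltbp3, which binds latent TGF-beta to the matrix, fell by 0.53 (edgeR adjusted p = 0.0258). In lean mice Casp4 and Casp8 were called higher, by 0.83 and 0.47 (edgeR adjusted p = 0.00831 and 0.022), where 3.27% of all genes were called higher.

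Of the 31 signal transduction and feedback genes, 10 were called higher and 2 lower with the tumor in obese mice, beside 26.8% and 27.7% of all genes. The feedback inhibitors Socs3 and Socs1 rose by 1.63 and 1.19 (edgeR adjusted p = 0.000103 and 0.00212), Socs3 in 6 of 6 and Socs1 in 5 of 6 mice, whereas the kinase gene Irak2 fell by 1.02 and Smad3 by 0.44 (edgeR adjusted p = 0.000232 and 0.000173), each in 6 of 6 mice. In lean mice 3 of the 31 were called, all higher, where 3.27% of all genes were called higher. Among them were the NF-kappaB regulator Bcl3 (0.71, edgeR adjusted p = 0.0363) and the adaptor Myd88 (0.53, edgeR adjusted p = 0.0475).

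Of 15 known target genes of these cytokines, 7 were called higher and 2 lower in obese and 3 higher and 1 lower in lean tumor-associated IWAT. Over all genes, 26.8% were called higher and 27.7% lower in obese mice, and 3.27% higher and 0.913% lower in lean mice. Timp1, a protease inhibitor, rose from 4.54 ± 1.78 to 53.0 ± 23.4 CPM (SD, n = 6; log2 fold change 3.53, edgeR adjusted p = 9.52e-07) in obese mice and by 2.12 in lean mice (edgeR adjusted p = 0.00442). Ccl2, the monocyte chemokine, rose by 3.14 in obese and 2.80 in lean mice (edgeR adjusted p = 7.22e-06 and 0.00142), higher in every mouse. Nos2, the inducible nitric oxide synthase, went the other way in both diets, by -0.86 in obese and -0.92 in lean mice (edgeR adjusted p = 0.00203 and 0.0284), lower in 6 of 6 and 5 of 5 mice. Lcn2 fell by 0.92 in obese mice (edgeR adjusted p = 0.0122), higher in 2 of 6 mice.

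A wider list of 46 further cytokine genes was mostly low: 28 did not pass the filter, with at most 29 reads in any library. Of the other 18, 2 were called higher and 5 lower with the tumor in obese mice, and 1 higher in lean mice. Over all genes, 26.8% were called higher and 27.7% lower in obese mice, and 3.27% higher in lean mice. Csf1, the macrophage growth factor, was the one called in both, at 68.3 ± 10.7 and 141 ± 30.1 CPM in obese control and tumor-associated IWAT (SD, n = 6; log2 fold change 1.05, edgeR adjusted p = 2.74e-05) and with a log2 fold change of 0.59 in lean mice (edgeR adjusted p = 0.0432). Ctf1 and Il7 fell by 1.17 and 0.93 in obese mice (edgeR adjusted p = 0.00148 and 0.0155), each lower in 6 of 6 mice.

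The genes whose log2 CPM followed a member most closely over the 22 libraries were sought among all genes tested for the 6 members with a median of at least 10 reads. They were Ppp1r18, Plekhb2 and Msn for Tgfb1 (Pearson r from 0.96 to 0.97), Adam8, Ostf1 and Nceh1 for Il1rn (0.94 to 0.95), Pilra, Akt1 and Pgm1 for Il1b (0.92 to 0.94), Nrm, Nfkb2 and Cnn2 for Tnf (0.86 to 0.88) and Ly86, Themis2 and Mknk1 for Il18 (0.86 to 0.87). For Il33 the closest genes reached only 0.75 to 0.76 (Anxa3, Cd209c and Cxcr7). Among the members themselves, the closest pairs were Osm with Il10 (r = 0.88) and Il1rn with Tgfb1 (0.83), and the least alike were Il33 with Tnf (-0.11) and with Il1b (0.04). The libraries share mice, groups and, in the obese tumor-associated group, a large common change, so that these values describe the series and carry no test.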

How the data were processed

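RNA of tumor-associated and control inguinal fat pads of 11 mice was sequenced after ribosomal RNA depletion. The authors deposited raw counts per gene, which per the labels and the study's methods came from reads trimmed with prinseq, aligned to mm10 with STAR 2.4.0f and counted with HTSeq. The annotation and the strand setting of the counting are not given in the sources used here. Of the reads counted, 38.5% to 48.8% fell on no feature, and the 5 HTSeq summary lines stayed out of library sizes and tests. Every column was mapped to a sample (0 unmapped), and no pair of libraries of a group agreed within sampling noise (chi-square per degree of freedom at least 5.69).

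Counts were fitted with edgeR 4.0.16 (R 4.3.3; TMM scaling, filterByExpr, quasi-likelihood test) over all 22 libraries and 4 groups, with Benjamini-Hochberg adjustment over all 14458 genes tested and a threshold of 0.05. Il1a and Il6 were fitted without the filter. Single values were tested with exact permutation tests over mice on log2 CPM with a prior count of 2 (scipy 1.17.1), 50 tests in all, with no adjustment. The scripts were tested on simulated data. Limits for counts of 0 cover counting error only (3 counts). The SE of an edgeR log2 fold change was its absolute value over the square root of the quasi-likelihood F statistic. It therefore includes the spread between libraries.

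The mouse number pairs the pads of one animal: the median correlation of the 2 pads' deviations from their group means was 0.51 in lean mice (over 0.1 in 5 of 5) and 0.17 in obese mice (4 of 6). A fit with the mouse as a replicate block was an alternative, as were DESeq2 1.42.0, other scalings and filters, a fit of the 2 groups compared, and each library or mouse left out. Leaving out the 3 obese tumor-associated libraries with most germline RNA, or the 3 libraries with most B cell RNA, was chosen after seeing the data.

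The members and the gene lists were chosen with earlier results of these data known. All 10 members are named whatever their values. From each role of the other lists the text draws on the 2 largest rises and falls among called genes with at least 10 counts in every library of the higher group, and for each member with a median of at least 10 counts on the 3 genes with the highest Pearson r. Nothing says that the mice were housed or processed independently, so p-values measure the spread between these samples.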

Additional observations from a re-analysis of the deposited data

Results flagged for a closer look

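Of 40 gene and group combinations examined for a CPM value far from the others of its group, 5 stood out. Chance gives about 1 in 20 for normally distributed values, and the rate for CPM of low counts was not computed. Il6 and Osm stood out in the same libraries, so the combinations are not independent. Tnf was 4.12 CPM in lean tumor-associated mouse 6, where the other 4 libraries lay between 1.08 and 1.87 CPM. In lean tumor-associated mouse 2, Il6 was 3.11 CPM (others 0.386 to 0.927) and Osm 4.35 CPM (others 0.644 to 1.67). In obese tumor-associated mouse 8, Il6 was 9.42 CPM (others 0.406 to 2.66) and Osm 9.99 CPM (others 2.16 to 3.69).

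The change from the control to the tumor-associated pad, taken per mouse on the log2 CPM scale, was compared between diets for all 10 members. Only Il1b and Tgfb1 had an unadjusted exact permutation p under 0.05, with no adjustment for the 10 tests. Their change was larger in obese mice by 2.13 for Il1b (exact permutation test over 462 divisions of the 11 mice, two-sided, unadjusted p = 0.013) and by 0.64 for Tgfb1 (exact permutation test, unadjusted p = 0.0303). Neither passed the edgeR test adjusted over all genes.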

How the results depend on the processing

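Of the 2187 values recomputed (main ones included), 1975 kept their direction and side of the threshold or their size, 32 lost a call, 23 gained one, 74 changed sign and 83, all counts of genes called, moved by over 1.5 times or to or from 0. The number of members called fell from 1 to 0 in lean mice with at least 10 counts in every library (3 members tested), with the 2 groups alone and without the 3 libraries with most B cell RNA (Il10 edgeR adjusted p = 0.05), from 6 to 2 in obese mice and from 3 to 1 between tumor-associated groups with at least 10 counts in every library, and from 2 to 1 between control groups with upper-quartile scaling, with 10 counts, with the 2 groups alone and without the B cell libraries. The stricter filter leaves 3 members, and the fit of the 2 lean groups leaves 5, without Il10. For the other settings the cause was not tested. For the difference between diets, DESeq2 called 2 and the fit without the B cell libraries 1. With 1 library or mouse left out, the members called ranged from 0 to 1 in lean and 5 to 7 in obese tumor-associated against control IWAT, 1 to 2 between control groups, 3 to 5 between tumor-associated groups and 0 to 2 for the difference. With the mouse as a replicate block, the same members were called in lean (1) and obese mice (6) and none for the difference, and Il10 in lean mice had a log2 fold change of 2.34 (edgeR adjusted p = 0.017).

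Over all genes, the calls in lean mice were 605, against 908 with DESeq2, 1437 with the 2 groups alone and 119 (without both pads of lean mouse 2) to 952 (without obese tumor-associated mouse 4) with libraries left out. The difference had 711 calls, against 2368 with DESeq2, 18 without a filter, 10 and 1170 without the germline and B cell libraries, and 0 to 3568 with libraries left out (3568 without obese tumor-associated mouse 1). Without the germline libraries, 4849 genes were called for the tumor in obese mice and 4432 between tumor-associated groups, against 7882 and 6802. Calls between control groups fell to 1606 without lean control mouse 6, from 2468. Upper-quartile scaling moved the share of higher calls from 78.2% to 65.7% in lean mice from 55.9% to 42.5% between control groups and, in obese mice and between tumor-associated groups, from 49.2% to 43.5% and from 52.5% to 42.6%.

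Changes of sign were limited to log2 fold changes that were not called. They were, for the tumor in obese mice, Il1a (0.16 with the replicate block, 1.29 without the B cell libraries) and Il33 (-0.012 with upper-quartile scaling). Between tumor-associated groups Il18 was -0.058 with upper-quartile scaling, -0.019 with 10 counts and -0.015 without the B cell libraries. For the difference, Il1a was 0.53 and Il10 0.010 without the B cell libraries and Tnf -0.17 without the germline libraries. With libraries left out, values ranged in obese mice from -0.38 to 0.41 for Il1a and -0.27 to 0.53 for Il33, between control groups from -0.24 to 0.13 for Il18 and -0.10 to 0.87 for Il6, between tumor-associated groups from -0.19 to 0.22 for Il18, and for the difference from -0.17 to 0.26 for Il18, -0.39 to 0.51 for Tnf, -0.46 to 0.75 for Osm and -0.61 to 0.51 for Il10. Control libraries with 0 to 4 reads of Il1a, Il6 and Il10 limit the precision of their folds.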
